A study of Homo sapiens with 9 samples.

Results

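The genes described here are 8 components of growth factor signalling that are known targets of the miR-15/16 family: the receptors FGFR1, IGF1R, and INSR, the receptor adaptors IRS1 and IRS2, and the kinases MAP2K1 (MEK1), AKT1, and RPS6KB1 (S6K1). They were found by symbol, and all 8 had a row among the 14839 genes of the deposited table. The cells were MP41, a GNA11-mutated uveal melanoma (UM) line, transfected with a synthetic miR-16 or a control mimic (miR-CTR), each at 66 nM, and the values are from RNA sequencing of polyA RNA. There was 1 library at 0 h, harvested before any transfection, and 1 library with each mimic at 6, 12, 24, and 48 h, which gave 9 libraries. The 0 h library carried the label of the miR-CTR series and is the same reference for both mimics. No time is spelled out in the column names of the table, and the time points they number were taken in rising order as these hours. No group had a replicate, so no P-value was computed, and the standard errors (SEs) and 95% intervals given below come from the number of reads and cover counting error only.

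Growth factors bind receptor tyrosine kinases at the cell surface. Activated receptors recruit adaptors, and from there the signal runs along 2 main branches: RAS, RAF, MEK, and ERK in one, and PI3K, AKT, mTOR, and S6K in the other. In UM, activating mutations of GNAQ or GNA11 feed the RAF-MEK-ERK branch from a G protein, beside the receptors. A microRNA lowers the level of messenger RNAs mainly through pairing of its seed, bases 2 to 8 from its 5′ end, with the 3′UTR. The libraries measured RNA only, so neither protein amount nor kinase activity was observed.

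The sequences below are shown because the same short word occurs in genes whose RNA was lower, higher, or little different with miR-16. Mature hsa-miR-16-5p (RefSeq) is written with its seed in capitals, and each 3′UTR window of 22 bases (GENCODE version 29, GRCh38, read 5′ to 3′ on the strand of the gene) has the matched bases in capitals.
hsa-miR-16-5p: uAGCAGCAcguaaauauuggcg
MAP2K1, chr15:66491064-66491085, forward strand: tgtgaagcatgcttTGCTGCTA
RPS6KB1, chr17:59948398-59948419, forward strand: tttttttaaatagaTGCTGCTt
INSR, chr19:7116472-7116493, reverse strand: aattgaccaatagcTGCTGCTt
IRS2, chr13:109753951-109753972, reverse strand: aggggtcaatgtgaTGCTGCTg
IRS1, chr2:226735890-226735911, reverse strand: agatacatttcatcTGCTGCTg
IRS1, chr2:226732957-226732978, reverse strand: catatttggtctcaTGCTGCTt

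Matches were searched on the strand of the gene in the longest annotated 3′UTR. A 7mer-m8 (TGCTGCT) pairs with bases 2 to 8 of miR-16, an 8mer (TGCTGCTA) adds an A opposite base 1, and a 7mer-A1 (GCTGCTA) lacks the pair at base 8. MAP2K1 had the single 8mer of the group, at base 463 of a 3′UTR of 1697 bases in exon 11 of 11. RPS6KB1 and IRS2 had 1 match each and IRS1 had 2, all of them 7mer-m8. FGFR1, a gene on chromosome 8, had 3 matches of the same kind, of which 2 overlapped. IGF1R and INSR had 5 matches each, 4 of them 7mer-m8 and 1 a 7mer-A1, and 2 of the IGF1R matches overlapped. AKT1 had none in the 992 bases of its 3′UTR. Of the 11575 protein-coding genes with a 3′UTR, 29.21% held at least 1 such match. Since the genes were picked as known targets, the presence of matches in 7 of 8 is a description and not a result.

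The level of a gene is given below as deposited, as log2 of normalized reads plus 1, and the logFC at a time is the miR-16 value minus the miR-CTR value of that time. The early logFC is the mean of 6 and 12 h, the late logFC is the mean of 24 and 48 h. A call down or up means that this average was past 0.5 in size, the threshold the study used. Over all genes, 1.45% were called down and 2.04% up early, and 5.73% were called down and 7.76% up late. None of the 8 genes was called early. Late, FGFR1 and MAP2K1 were called down and IRS1 was called up, which is 2 and 1 of 8, and 1 gene of this group is 12.5% of it. The remaining 5 were not called. Of the 8 late logFCs 7 were below 0, as were those of 7292 of the 14839 genes. The median late logFC of the group was -0.17, against 0.01 over all genes. It was -0.09 over the 3381 protein-coding genes with at least 1 miR-16 match, of which 9.82% were called down late and 4.58% up. The share of those genes below 0 is not given here. In a bulk culture, fewer cells of a kind and less RNA per cell cannot be told apart. The called genes lie close to the threshold. RPS6KB1, at -0.46, was just inside it, and MAP2K1 at -0.52, FGFR1 at -0.53, and IRS1 at 0.55 were just past it.

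**Figure D1:**
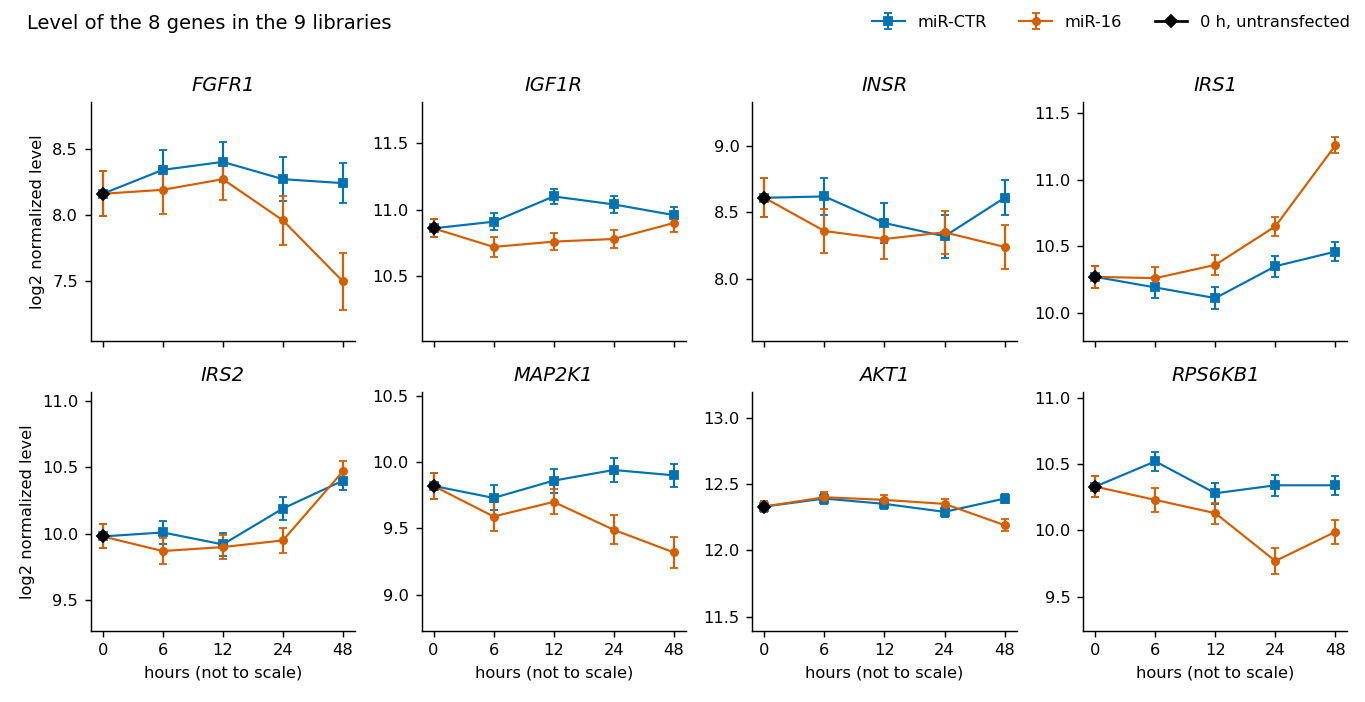
Level (log2 of normalized reads plus 1, vertical axes each spanning the same height) of the 8 genes in the 9 libraries, against hours in equal steps; the black diamond is the shared 0 h library and bars are 95% counting intervals. FGFR1, MAP2K1, and RPS6KB1 ended below their miR-CTR values at 24 and 48 h with miR-16, IRS1 ended above them at 11.26, and AKT1 stayed between 12.19 and 12.40.

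Of the 3 receptors in the group, FGFR1 had the largest late difference and IGF1R the largest early one. FGFR1 binds fibroblast growth factors. Its level was 8.16 at 0 h and, with miR-CTR, 8.34, 8.40, 8.27, and 8.24 at the 4 later times in turn. With miR-16 it was 8.19, 8.27, 7.96, and 7.50 at the same times. The miR-16 libraries of 24 and 48 h were thus below each of the 5 miR-CTR libraries. The share of all genes whose libraries separate in such a way was not computed, here or for the genes below. Pathway genes that were not called late separated from the 5 miR-CTR libraries at 24 and 48 h too. Examples are GRB2 and PHLPP2, which were below them, and EIF4EBP2, which was above them. From 6 to 48 h the logFC of FGFR1 took the values -0.15, -0.13, -0.31, and -0.74. The late logFC of FGFR1 was -0.53 (SE 0.092, 95% interval -0.71 to -0.34), a level 0.695 times that with miR-CTR. This value rests on the 48 h library, at which FGFR1 was at 59.9% of control, since 24 h alone did not pass 0.5. FGFR1 was weakly expressed, with 170 to 353 reads per library, and its counting error was the widest of the group.

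IGF1R is the receptor of the insulin-like growth factors. Its level with miR-CTR was 10.86 at 0 h, then 10.91, 11.10, 11.04, and 10.96 at 6, 12, 24, and 48 h. With miR-16 it was 10.72, 10.76, 10.78, and 10.90 at the same times. Each miR-16 value was below the miR-CTR value of its time, but the 48 h value lay within the range of the miR-CTR libraries. The difference was widest at 12 h, with a logFC of -0.34 (SE 0.045), and nearly closed at 48 h, with -0.06 (SE 0.045). The early logFC of IGF1R was -0.27 and the late logFC -0.16 (SE 0.033, 95% interval -0.22 to -0.10). IGF1R was not called in either window despite its 5 seed matches.

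INSR, the insulin receptor, is the closest relative of IGF1R. Its level with miR-CTR was 8.61 at 0 h, then 8.62, 8.42, 8.32, and 8.61 at 6, 12, 24, and 48 h. With miR-16 the values were 8.36, 8.30, 8.35, and 8.24. The mimics overlapped late, because the miR-CTR library of 24 h was as low as the miR-16 library of the same time. From 6 to 48 h the logFC of INSR took the values -0.26, -0.12, 0.03, and -0.37. The late logFC was -0.17 (SE 0.080, 95% interval -0.33 to -0.01), from 285 to 457 reads per library.

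The adaptors moved apart. IRS1 and IRS2 are docking proteins that the insulin and IGF1 receptors phosphorylate and that then bind PI3K. The IRS1 level with miR-CTR was 10.27 at 0 h, then 10.19, 10.11, 10.35, and 10.46 at 6, 12, 24, and 48 h. In the miR-16 libraries it was 10.26, 10.36, 10.65, and 11.26. At 24 and 48 h the miR-16 libraries were above each of the 5 miR-CTR libraries. The logFC of IRS1 grew from 0.07 (6 h) over 0.25 (12 h) and 0.30 (24 h) to 0.80 (48 h, SE 0.046), when IRS1 RNA was at 1.74 times the control. Its late logFC of 0.55 (SE 0.036, 95% interval 0.48 to 0.62) was the highest of the 8 genes, and 6.4% of all genes had a higher one. The call again rests on the 48 h library, and 24 h alone did not pass 0.5. IRS1 was higher with miR-16 although its 3′UTR holds 2 of the 7mer-m8 matches printed above.

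The IRS2 level with miR-CTR was 9.98 at 0 h, then 10.01, 9.92, 10.19, and 10.40 at 6, 12, 24, and 48 h. In the miR-16 libraries it was 9.87, 9.90, 9.95, and 10.47. IRS2 was higher at 48 h than at 0 h with either mimic, and the mimics overlapped late. The 4 logFCs of IRS2 were -0.14, -0.02, -0.24 (SE 0.064), and 0.07 (SE 0.054) in the order of time. The late logFC was -0.09 (SE 0.042). The late logFC of IRS1 thus exceeded 0.5 while that of IRS2 did not, and the 95% intervals of these 2 values did not overlap.

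MAP2K1 encodes MEK1, the kinase that phosphorylates ERK1 and ERK2. Its level with miR-CTR was 9.82 at 0 h, then 9.73, 9.86, 9.94, and 9.90 at 6, 12, 24, and 48 h. With miR-16 it was 9.59, 9.70, 9.49, and 9.32. All 4 miR-16 values were below all 5 miR-CTR values. In the order of time, the logFCs of MAP2K1 were -0.14, -0.16, -0.45 (SE 0.073), and -0.58 (SE 0.073). The late logFC was -0.52 (SE 0.051, 95% interval -0.62 to -0.41), and 5.3% of all genes had a lower one. At 48 h the RNA was at 66.9% of control. In a single library a value this far past the counting error still lacks a replicate check, and the spread between cultures is unknown.

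AKT1, a kinase activated downstream of PI3K, was the gene of the group without a match and varied least. Its level with miR-CTR was 12.33 at 0 h, then 12.39, 12.35, 12.29, and 12.39 at 6, 12, 24, and 48 h. The miR-16 values were 12.40, 12.38, 12.35, and 12.19. The miR-16 library of 48 h was the lowest of the 9, and the others lay between 12.29 and 12.40. The logFC of AKT1 was 0.01, 0.03, 0.06, and -0.20 (SE 0.028) at the 4 times in turn, and the late logFC was -0.07 (SE 0.020).

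RPS6KB1 encodes S6K1, the kinase that mTOR activates and that phosphorylates ribosomal protein S6. Its level with miR-CTR was 10.33 at 0 h, then 10.52, 10.28, 10.34, and 10.34 at 6, 12, 24, and 48 h. The miR-16 values were 10.23, 10.13, 9.77, and 9.99. All 4 miR-16 values were below all 5 miR-CTR values, as for MAP2K1. This separation is not particular to these genes, since pathway genes that were not called showed it too. Examples are RICTOR (miR-16 at most 9.43, miR-CTR at least 9.48) and PIK3R2 (at most 10.86 and at least 10.91). The 4 logFCs of RPS6KB1 were -0.29, -0.15, -0.57 (SE 0.065), and -0.35 (SE 0.059), so that 24 h, and not 48 h, gave the widest difference. Its late logFC of -0.46 (SE 0.044, 95% interval -0.55 to -0.37) did not pass 0.5, and its counting interval reached past it.

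**Figure D2:**
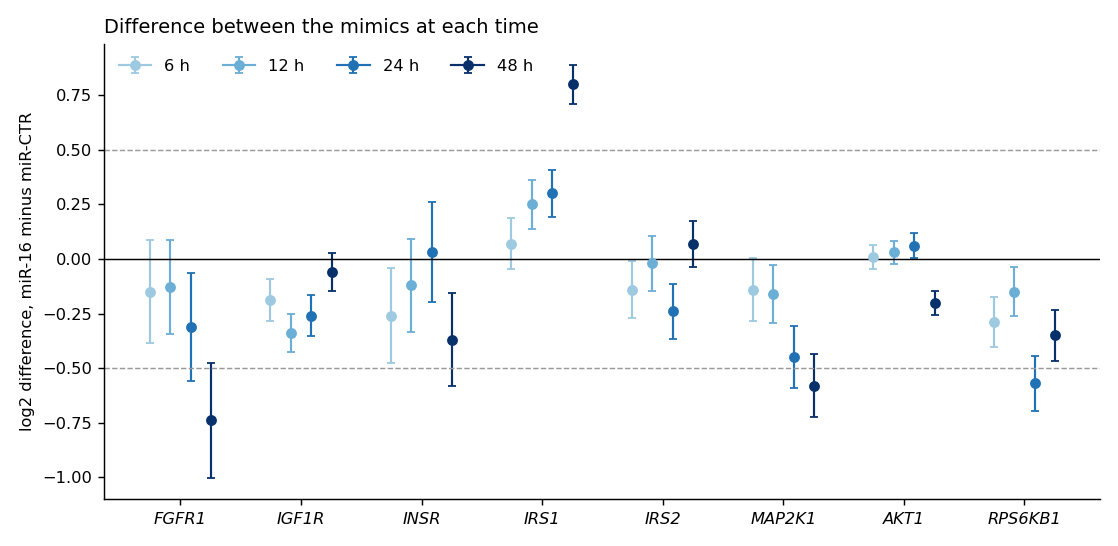
Difference between the mimics (log2, miR-16 minus miR-CTR) for each gene at 6, 12, 24, and 48 h, with 95% counting intervals; dashed lines mark 0.5 in size. FGFR1 at 48 h (-0.74), RPS6KB1 at 24 h (-0.57), MAP2K1 at 48 h (-0.58), and IRS1 at 48 h (0.80) lie outside the lines, and no gene does at 6 or 12 h.

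AKT1 had the highest level per length. At 0 h, per kilobase of exon, AKT1 stood at 1122 normalized reads, MAP2K1 at 258, RPS6KB1 at 229, IGF1R at 152, IRS1 at 127, IRS2 at 124, FGFR1 at 43.7, and INSR at 42.9. Over the 9 libraries AKT1 kept between 1018 and 1178, above the whole range of the other genes. FGFR1 (27.6 to 51.7) and INSR (33.1 to 43.2) overlapped each other and stayed below the rest. The ranges of MAP2K1 (182 to 280) and RPS6KB1 (155 to 261) overlapped, as did those of IGF1R (138 to 179), IRS1 (114 to 253), and IRS2 (115 to 174), and the range of RPS6KB1 overlapped those of IGF1R, IRS1, and IRS2. Among these 5 genes, the range of MAP2K1 lay wholly above those of IGF1R and IRS2, and no other pair differed beyond its spread.

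For the 4 genes with the widest late differences, the miR-16 libraries lay farther from the 0 h library than the miR-CTR libraries did. The late change from 0 h with miR-16 was -0.43 for FGFR1, -0.42 for MAP2K1, -0.45 for RPS6KB1, and 0.69 for IRS1. With miR-CTR the late change was 0.10 for FGFR1 and MAP2K1, 0.01 for RPS6KB1, and 0.14 for IRS1. INSR was at -0.32 with miR-16 and -0.15 with miR-CTR, and IRS2 was at 0.23 and 0.32. IGF1R was at -0.02 and 0.14, and AKT1 was at -0.06 and 0.01. With miR-16, 1 of the 8 genes (IRS1) was past 0.5 upward and 0 were past it downward, and over all genes these shares were 14.1% and 11.7%. With miR-CTR 0 of the 8 genes passed 0.5 in either direction, and over all genes 11.0% did upward and 9.79% downward. These comparisons share the 0 h library.

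**Figure D3:**
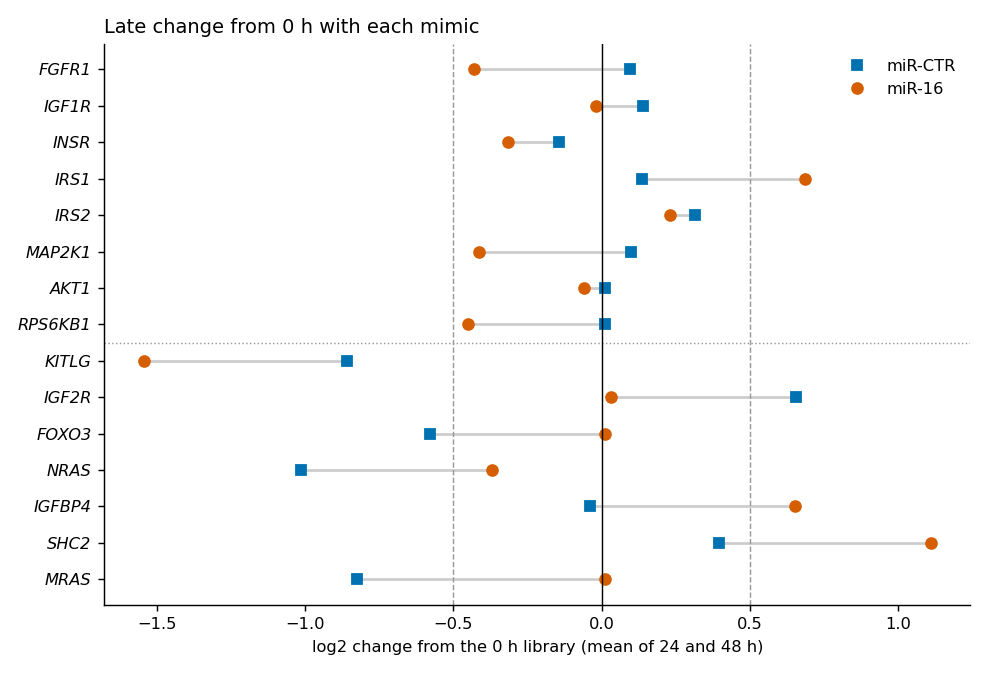
Late change from the 0 h library (log2, mean of 24 and 48 h) with miR-CTR (squares) and miR-16 (circles) for the 8 genes, above the dotted line, and for other pathway genes called late above the lowest 25% of expression. For the 8 genes the miR-CTR squares lie between -0.15 and 0.32, whereas for KITLG, NRAS, MRAS, and FOXO3 they lie below -0.5.

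The control mimic can have matches of its own. The study lists 2 biotinylated synthetic strands, the kind it used in a separate pull-down experiment. Of these, 1 is miR-16, and the other, uUGUACUAcacaaaaguacug with its seed in capitals, is called the control sequence here. In that list the names of the strands appear to be exchanged, and that the transfected miR-CTR has this sequence is an assumption. The 7mer-m8 of this strand reads TAGTACA and its 7mer-A1 reads AGTACAA. Such matches, 8mers included, were found in 14.72% of the 3′UTRs, and in 2 of the 8 genes. MAP2K1 had 1 such 7mer-m8 and RPS6KB1 had 1 such 7mer-A1. As given above, neither gene was lower late with miR-CTR than at 0 h, but the 0 h library was untransfected and from another time. The part of these matches in the values was not tested. Over the 1704 protein-coding genes with such a match, the median late change from 0 h with miR-CTR was -0.13, against 0.01 over the 9871 without one. The shares called up late in these sets were 11.03% and 5.53%.

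Set beside the seed matches of all protein-coding genes, the 8 genes spread widely. Of these genes, 572 had an 8mer as their best match (median late logFC -0.16), 2384 a 7mer-m8 (-0.07), 425 a 7mer-A1 (-0.08), and 2035 only a 6mer, GCTGCT (0.01), and the median was 0.03 in the 6159 that had none. The share called down late was 15.73% with an 8mer, 8.39% with a 7mer-m8, 9.88% with a 7mer-A1, 4.18% with only a 6mer, and 3.49% without a match. MAP2K1 lay below the 25th percentile of its class, which was -0.37. RPS6KB1 and FGFR1 lay below that of the 7mer-m8 class, which was -0.27, and IRS1 lay above its 75th percentile of 0.12. IRS2, IGF1R, and INSR lay between these bounds, and AKT1 lay between those of the genes without a match, -0.14 and 0.20. For the 58 genes with 5 or more matches the median was -0.17 and 17.24% were called down. IGF1R and INSR, with 5 matches each, were close to this median.

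**Figure D4:**
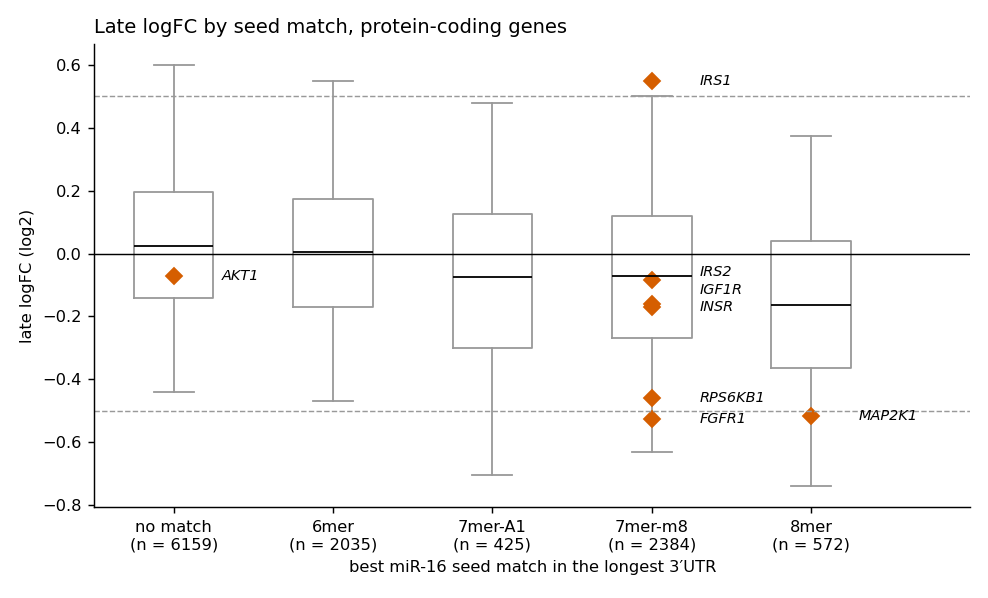
Late logFC (log2) of protein-coding genes by their best miR-16 match in the longest 3′UTR, with boxes from the 25th to the 75th percentile, lines at the medians, whiskers from the 5th to the 95th percentile, and the 8 genes as diamonds. Medians run from 0.03 without a match to -0.16 with an 8mer, and IRS1, at 0.55, lies above the 5 other genes whose best match is a 7mer-m8.

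The paralogs of the 8 genes often differed from them. MAP2K2, which encodes MEK2, had only a 6mer and a late logFC of -0.15 (SE 0.019), against -0.52 for MAP2K1, and its level per kilobase at 0 h was 3182. RPS6KB2, which encodes S6K2 and has no match, was at -0.04 (SE 0.043), against -0.46 for RPS6KB1. AKT2 has 2 matches, yet its late logFC was 0.20 (SE 0.037), against -0.07 for AKT1, which has none. Of the FGF receptors, FGFR4, with 3 matches, was at -0.49 (SE 0.075), near the value of FGFR1. FGFR2 and FGFR3, with 1 match each, were at -0.01 (SE 0.157) and -0.09 (SE 0.099), with levels at 0 h of 7.01 and 8.24.

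The pathway was then read from a list of 143 symbols grouped by role, of which 123 had a row, the 8 genes included. Late, 4 of the 123 were called down and 13 up, and 106 were not called. This is 3.3% down and 10.6% up, beside the 5.73% and 7.76% of all genes given above, and the median late logFC of the list was -0.06. No pathway gene was called down early and 2 were called up. Of the 17 late calls, 6 were of genes in the lowest 25% of expression (a mean level below 7.02), among them PDGFRA, PDGFRB, FGF1, IGFBP5, and GRB14.

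Among 22 receptors, 2 were called down and 3 up. The other receptor called down, beside FGFR1, was IGF2R, which takes up IGF2 for degradation and carries no kinase. The IGF2R level was 12.22 at 0 h. The miR-CTR libraries then gave 12.59, 12.58, 12.82, and 12.93, and the miR-16 libraries gave 12.45, 12.11, 12.16, and 12.34. Its late logFC of -0.63 (SE 0.019) thus came with a late change from 0 h of 0.66 with miR-CTR and 0.03 with miR-16. The receptors called up, PDGFRA and PDGFRB among them, were all in the lowest 25% of expression, and PDGFRB, at 1.80 (SE 0.346), went down to 10 reads in 1 library. Among 19 ligands and IGF binding proteins, 1 was called down and 3 up. The ligand of KIT, KITLG, was at -0.69 (SE 0.079), and its late change from 0 h was -1.55 with miR-16 and -0.86 with miR-CTR. IGFBP4, which binds IGFs in the medium, was at 0.69 (SE 0.056), IGFBP5 was at 1.67 (SE 0.119), and FGF1 was at 1.40 (SE 0.419), with 7 reads in its lowest library.

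Among 19 adaptors, IRS1, SHC2, and GRB14 were called up and 0 down. SHC2, a SHC family adaptor, and GRB14, an inhibitor of the insulin receptor, were each at 0.72, and the late SHC2 values of the mimics overlapped. GRB2, the adaptor that brings SOS to receptors, had the lowest late logFC of the adaptors, -0.37. The RAS-RAF-MEK-ERK list had 1 gene called down, MAP2K1, and 3 called up of 20, and its median was -0.14. Among the genes called up were the RAS family members NRAS at 0.65 (SE 0.033) and MRAS at 0.84 (SE 0.035). MRAS was at 11.17 at 0 h and between 11.17 and 11.19 with miR-16, while with miR-CTR it was at 10.69, 10.53, 10.40, and 10.29. The late change of NRAS from 0 h was -1.02 with miR-CTR, whereas miR-16 gave -0.37. NRAS and MRAS each hold 1 match to the control sequence, MRAS also holds 2 matches to miR-16, and the part of these matches in the values was not tested.

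Of the 23 PI3K-AKT genes, 1 was called up and 0 down. That gene was FOXO3, a transcription factor that AKT inhibits, at 0.59 (SE 0.052), which holds 3 matches to the control sequence and changed by -0.58 from 0 h with miR-CTR and by 0.01 with miR-16. PHLPP2, a phosphatase of AKT, had the lowest late logFC of this list, -0.38. Of the 20 mTOR-S6K genes none was called in either direction. RPS6KB1 had the lowest late logFC of these, and EIF4EBP2, an inhibitor of translation that mTOR phosphorylates, had the highest, 0.36.

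**Figure D5:**
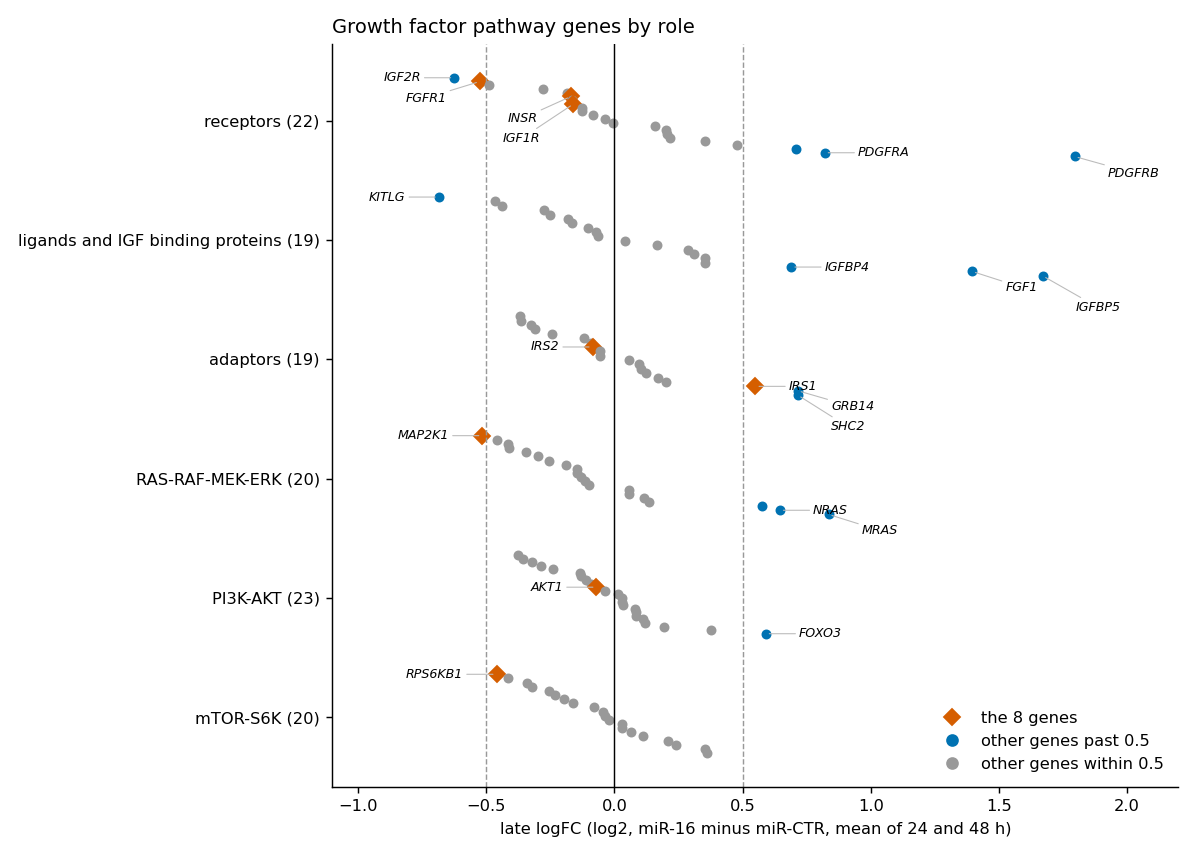
Late logFC (log2, mean of 24 and 48 h) of the 123 pathway genes by role, with the number of genes in each list in brackets; diamonds are the 8 genes, blue points other genes past 0.5 (not all are named), grey points those within it. In the lists of receptors and ligands the called rises reach 1.80 and 1.67, and in the mTOR-S6K list no point lies outside the dashed lines.

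RNAs that the 2 branches are known to control were read as well. The lists of these RNAs were chosen with earlier results of these data known, so their counts are descriptions and not tests. Of 16 genes with a row that ERK signalling induces, 8 were called up late and 2 down, and their median late logFC was 0.49, beside 7.76% and 5.73% called over all genes. Their median late change from 0 h was 0.09 with miR-16 and -0.15 with miR-CTR, so a call up need not be a rise from 0 h with miR-16. DUSP6, a phosphatase of ERK that is induced by it, had the highest value, 1.62 (SE 0.025). With miR-CTR the DUSP6 level was 12.02 at 0 h, then 11.55, 11.62, 11.30, and 10.84, and with miR-16 it was 11.79, 12.21, 12.59, and 12.78. DUSP6 was therefore lower late than at 0 h with miR-CTR and higher with miR-16, while the MAP2K1 RNA had the opposite order. The 2 genes called down were SPRED1, an inhibitor of RAS signalling, at -0.81 (SE 0.047), and CCND1 (cyclin D1) at -0.63 (SE 0.013), each with 2 seed matches to miR-16. Of the 8 called up, SPRY4 at 0.71 and ETV1 at 0.69 also held 1 match each to miR-16. Other genes called up held a match to the control sequence, and the part of these matches in the values was not tested. Not every gene called up lay above the lowest 25% of expression. The late change of SPRY4 from 0 h was 0.76 with miR-16 and 0.05 with miR-CTR, whereas that of ETV1 was -0.04 and -0.73. Of 15 genes that FOXO factors induce, which AKT restrains, 1 was called down and 0 up, with a median of -0.09. That gene was SESN3, a regulator of mTOR, at -0.75 (SE 0.044). INSR and IRS2 belong to this list too, and ERBB3 had its highest late logFC, 0.48.

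The genes whose course was most like that of each member were taken over the 8 transfected libraries, as the smallest root mean square difference between changes from 0 h. For FGFR1 these were RFC4 (0.081), C2orf47 (0.088), and NASP (0.100), and for IRS1 they were NADSYN1 (0.089), DNPH1 (0.094), and PROSP (0.104). MAP2K1 was nearest to KTN1 (0.057), MCU (0.061), and GPD2 (0.071), and RPS6KB1 to COL4A3BP (0.062), YEATS4 (0.065), and EEA1 (0.068). IGF1R was nearest to RSF1 (0.070), to the row named MIR4426 (0.074), and to ATF7 (0.076), and INSR to HNRNPA0 (0.072), TCAIM (0.073), and GALC (0.084). IRS2 was nearest to VPS51 (0.067), NCOA4 (0.070), and NPAT (0.071), and AKT1 to EDF1 (0.033), HNRNPF (0.043), and MGME1 (0.045). No member was among the 3 nearest of another member. All courses share the 0 h library, so these values describe likeness only.

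Reads recovered from the deposited values and summed over the 14839 genes numbered 20270000 to 27370000 per library (median 22090000). The median gene had 487 to 674 such reads. The 7 melanocyte lineage markers (MITF, PMEL, MLANA, TYR, TYRP1, DCT, and SOX10) had a row and lay between 12.29 and 17.88, and the log2 of their summed level was 18.59 to 18.83 with miR-CTR and 18.63 to 18.94 with miR-16. Of 5 markers of other cells 2 had a row, COL1A1 (8.04 to 8.86) and LUM (6.94 to 8.57), whose late logFCs were 0.04 and -0.81.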

How the data were processed

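PolyA RNA of MP41 cells was sequenced in 9 libraries. Per the labels, the authors' processing named FastQC, STAR 2.4.0a, featureCounts, Subread 1.5.0-p3, and hg38/GRCh38. The annotation, the scaling method, and the filter on weak genes are not given in the sources used here. The authors deposited normalized log2 values with 2 decimals. On the linear scale with 1 subtracted, each library had its own step (0.853 to 1.15), and 100% of its distinct values up to 20 (16 to 23 values per library) were whole multiples of it within the rounding of the deposited values (0.0051 on the log2 scale). The values are thus log2(reads / size factor + 1), and dividing by the step gave the reads behind the SEs.

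Sites were searched in the longest 3′UTR per gene of GENCODE version 29, joined by symbol, and reads were not assigned to isoforms. The genes named are the 8 genes, their paralogs, pathway genes past 0.5 late above the lowest 25% of expression, the extremes of each list, and the 3 nearest courses. Other called genes were named after their values were seen. Some genes and sequences that this rule names are not reported here. The members and lists were chosen with earlier results of these data known. Read recovery, calls, and site search were tested on simulated data. Python 3.11.15, pandas 2.3.3, numpy 2.4.6, and matplotlib 3.10.9 were used.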

Additional observations from a re-analysis of the deposited data

Results flagged for a closer look

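The direction of the AKT1 difference was not the same at all times. At 24 h the logFC was 0.06 (SE 0.029) and at 48 h it was -0.20 (SE 0.028). The 95% counting interval of 48 h excluded 0. That of 24 h cleared 0 by less than the rounding of the deposited values, so a positive difference at 24 h is not established. With 1 library per condition, the difference between these times was not tested.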

How the results depend on the processing

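The called genes lay close to the threshold. No member was called down at the 1.5-fold threshold, with 0.5 required at both 24 and 48 h, or against the 0 h library (0 of 8 each), and 1 of 8 (RPS6KB1) was at 24 h alone. Likewise 0 of 8 were called up at 24 h alone, at the 1.5-fold threshold, and at both times. A threshold of 0.4, added after seeing the data, gave 3 down and 1 up. For the pathway list, the calls down numbered 7 after quantile normalization, 13 against 0 h, 2 at 1.5-fold, and 2 at both times, in place of 4. The calls up numbered 20 against 0 h and 7 without the lowest 25% of expression, in place of 13. The 8mer alone left 1 of 8 members with a match. Quantile normalization, centring on the median gene, scaling to total reads, and adding 8 before the log2 called FGFR1 and MAP2K1 down and IRS1 up, and moved the median of all genes by at most 0.013. Across these 4 settings, FGFR1 ranged from -0.57 to -0.51, MAP2K1 from -0.51 to -0.50, RPS6KB1 from -0.46 to -0.43, and IRS1 from 0.55 to 0.59. The share called down late among genes with a match was 9.82% in the longest 3′UTR and 9.36% over all annotated 3′UTRs. The libraries of the mimics are paired by time, and each logFC is the difference within a pair. No fit across the 4 pairs was made, since they are different times and not replicates of 1 condition. Weak genes such as FGFR1 and INSR are limited by their reads.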
